A study of Mus musculus with 16 samples.

Results

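Transthyretin (Ttr), klotho (Kl), folate receptor alpha (Folr1), Clic6, Kcnj13, Otx2 and the prolactin receptor (Prlr) are expressed by the epithelium of the choroid plexus. They were followed in 16 bulk RNA libraries of mouse cortex as a readout of choroid plexus in the dissected tissue. The 7 genes were chosen by symbol as genes of this tissue, and all 7 were found among the 24060 genes listed in the deposited tables. Of these, 6 had a mean of at least 1 RPKM, the reads of a gene scaled to its length and to the depth of the library, over the 16 libraries and entered the test across all genes, and Prlr did not.

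The study, whose title names partial and complete loss of TREM2 in tauopathy, used 4 genotypes of mice with 4 libraries each. They were P301S+ TREM2-/- mice (knockouts below), P301S+ TREM2+/- mice (heterozygotes), P301S+ TREM2+/+ mice, and TREM2+/+ mice, whose label names no P301S (controls). P301S is a mutation of the microtubule protein tau, and TREM2 is a receptor of microglia. All mice were 8 to 9 months old, carried the strain label C57BL/6; C3, and comprised 2 females and 2 males per genotype. The sources used here do not give the promoter of the tau gene they carried, the part of Trem2 that was deleted or how the cortex was dissected. The labels do not name the animal behind each library, so the p-values below measure the spread between libraries. Replicate numbers only name the libraries of a genotype in the order in which they were deposited and pair none across genotypes.

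The choroid plexus hangs in the brain's ventricles and makes the cerebrospinal fluid. Its epithelium is a single sheet of cells that pumps ions and water, imports vitamins and hormones, and secretes carrier proteins. It is not part of the cortex, where neurons and glia make little or none of these transcripts. Ttr is the most widely used marker because its transcript is extremely abundant in this epithelium. In bulk RNA, fewer cells of a type and less RNA per cell cannot be told apart.

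Otx2, itself a member, is a homeodomain transcription factor that the choroid plexus needs to form and to keep its identity. Otx2 and its close relatives bind the core motif TAATCC. RefSeq promoters (GRCm38.p6) were listed for 4 of the 7 members, with 9 start sites in all, and the 250 bases before each start were searched for TAATCC and its reverse complement GGATTA. The motif was found before 1 of the 9 starts, an internal start of Otx2, at 211 bases before it. Of all 32851 RefSeq promoters of that length, 6.25% held it. The first sequence below is the 30-base stretch around that match, at chr14:48665303-48665332 on the minus strand, with the match in capitals. The other two are the windows before the outermost listed start of Otx2 (chr14:48667645-48667894, minus strand) and before the start of Kcnj13 (chr1:87394730-87394979, minus strand), shown because these 2 genes varied closely together across libraries. Neither holds these letters, and no capitals are marked there.
Otx2, around the match: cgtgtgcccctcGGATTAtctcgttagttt
Otx2, outermost start: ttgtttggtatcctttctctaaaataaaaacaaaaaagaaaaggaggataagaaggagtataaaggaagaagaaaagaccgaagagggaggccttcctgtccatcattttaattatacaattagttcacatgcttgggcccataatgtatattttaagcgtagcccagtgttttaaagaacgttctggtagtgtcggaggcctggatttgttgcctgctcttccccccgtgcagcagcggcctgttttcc
Kcnj13: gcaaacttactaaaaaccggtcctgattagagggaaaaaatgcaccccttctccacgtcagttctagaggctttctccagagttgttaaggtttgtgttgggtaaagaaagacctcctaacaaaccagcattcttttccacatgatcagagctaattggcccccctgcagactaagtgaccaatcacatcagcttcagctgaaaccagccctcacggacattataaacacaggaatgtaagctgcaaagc

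In GRCm38 coordinates from the GENCODE annotation, Ttr lies on chromosome 18 from 20665280 to 20674321 (plus strand) and Kl on chromosome 5 from 150952607 to 150993817 (plus). Folr1 lies on chromosome 7 from 101858331 to 101870788 (minus), and Clic6 on chromosome 16 from 92485736 to 92541243 (plus). Kcnj13 spans 87386363 to 87394729 on chromosome 1 (minus), Otx2 spans 48657677 to 48673819 on chromosome 14 (minus), and Prlr spans 10177238 to 10349180 on chromosome 15 (plus). The 7 genes therefore sit on different chromosomes. Exons of Kcnj13 share 623 bases with Gigyf2 on the opposite strand, and exons of Otx2 share 154 bases with the long noncoding RNA Otx2os1 on the opposite strand. On the same strand, exons of Prlr share 203 bases with Gm21973 and exons of Otx2 share 168 bases with Gm49154. Neither Gm21973 nor Gm49154 was listed in the deposited tables. The strand setting of the counting is not stated in any source used, and reads from these shared stretches could belong to either gene. Gigyf2 stood at 7.35 to 16.5 RPKM with a Pearson r of -0.18 with Kcnj13 over the 16 libraries, and Otx2os1 was listed at 0 in 10 libraries and reached at most 0.739 RPKM (r of 0.37 with Otx2).

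Library depth ran from 2552467 to 14473181 reads, the lowest in knockout replicate 2. Trem2, the targeted gene, was at 1.44 to 3.75 RPKM in the 4 knockouts, 4.50 to 25.2 in the heterozygotes, 14.3 to 34.0 in the P301S+ TREM2+/+ libraries and 7.35 to 20.2 in controls, so every knockout lay below every other library. Control replicate 3 stood apart from the other libraries. Psap, a lysosomal protein precursor made by most brain cells, was at 10.49 RPKM there and at 640 to 886 RPKM in the other controls, and array weights estimated by limma gave this library 0.0448 against 0.599 to 4.57 for the others. Several member and list results that it moved are therefore also given without it. Genes of excitatory cortical neurons were detected. Nrgn, Camk2a, Slc17a7, Tbr1 and the rest of the 6 such genes together summed to 2498 to 4806 RPKM in knockouts and 1516 to 4914 in heterozygotes. They summed to 2064 to 3725 RPKM in the P301S+ TREM2+/+ libraries and 3221 to 9515 in controls, and none of the 6 was at 0 in every library. Nrgn made up most of each sum. Control replicate 3 had the highest Nrgn, at 7950 RPKM, but only 25.4 RPKM of Tbr1, against 114 to 134 in the other controls.

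Transcripts of the choroid plexus were found in all 16 cortical libraries, at levels that differed between the highest and the lowest library by 8.66-fold for Clic6 to 26.4-fold for Ttr among the 6 genes above 0 in every library. Folr1 had 0 reads in 1 library and is given no fold. These levels did not separate the genotypes. The 2 libraries with the highest levels were P301S+ TREM2+/+ replicates 2 and 3, while the other 2 libraries of that genotype lay in the range of the remaining mice. No member passed the test in any of the 6 comparisons between genotypes.

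Ttr encodes the carrier of thyroxine and of retinol-binding protein that the choroid plexus secretes into the cerebrospinal fluid. It was at 975, 113, 159 and 175 RPKM in knockout replicates 1 to 4 and at 65.8, 376, 582 and 134 RPKM in the heterozygotes. The P301S+ TREM2+/+ mice had 207, 1616, 1739 and 245 RPKM, and the controls had 249, 105, 424 and 516 RPKM. Each genotype thus held both low and high libraries, and the ranges of all 4 overlapped. The means were 355 ± 414 RPKM in knockouts, 290 ± 236 in heterozygotes, 952 ± 840 in the P301S+ TREM2+/+ libraries and 323 ± 183 in controls (n = 4 each, ± SD). In order of the means P301S+ TREM2+/+ mice came first, then knockouts, controls and heterozygotes, and no neighbours in this order differed by more than the larger of their SDs. Between the highest and the lowest library Ttr differed 26.4-fold. Counting error was small beside this, since Ttr drew 352 to 14446 reads per library. The shallowest library, at 352 reads, has a 95% exact Poisson interval of 101 to 125 RPKM. Intervals and limits of this kind cover counting error only, because these reads carry no molecular identifiers and cannot be taken as separate molecules.

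**Figure D1:**
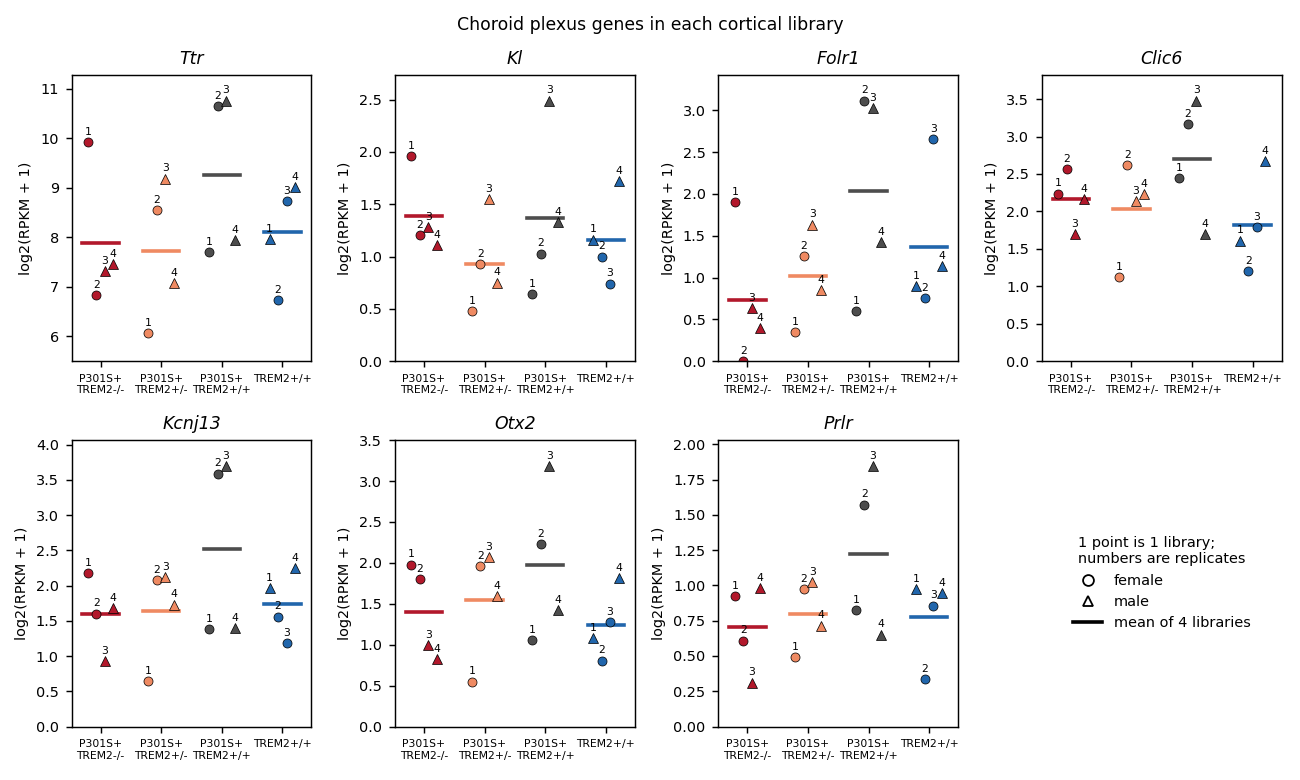
Level of each member in every library as log2(RPKM + 1), with genotypes from left to right as knockouts, heterozygotes, P301S+ TREM2+/+ mice and controls; bars are means of 4 libraries, circles females and triangles males, and the axis of Ttr does not start at 0. P301S+ TREM2+/+ replicates 2 and 3 lie at the top for Ttr, Folr1, Clic6, Kcnj13, Otx2 and Prlr, and the 4 genotypes overlap in every panel.

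Klotho, the product of Kl, is the coreceptor of the hormone FGF23 and is made by kidney, parathyroid and choroid plexus. Its transcript was at 2.90, 1.30, 1.44 and 1.16 RPKM in knockouts, 0.391, 0.907, 1.92 and 0.684 in heterozygotes, 0.562, 1.04, 4.62 and 1.51 in the P301S+ TREM2+/+ libraries, and 1.24, 0.999, 0.672 and 2.30 in controls. The highest library was again P301S+ TREM2+/+ replicate 3, but replicate 2 of that genotype, next in Ttr, ranked only 10th of 16 for Kl. The means were 1.70 ± 0.806, 0.975 ± 0.664, 1.93 ± 1.83 and 1.30 ± 0.706 RPKM in knockouts, heterozygotes, P301S+ TREM2+/+ mice and controls (n = 4 each, ± SD), and all 4 ranges overlapped.

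Folr1 encodes the receptor that takes folate across the choroid plexus into the cerebrospinal fluid. It was at 2.73, 0, 0.554 and 0.316 RPKM in knockouts and 0.271, 1.39, 2.10 and 0.806 in heterozygotes. It was at 0.511, 7.67, 7.14 and 1.68 RPKM in the P301S+ TREM2+/+ libraries and at 0.863, 0.687, 5.30 and 1.20 RPKM in controls. Knockout replicate 2 had 0 reads, which at its depth allows up to 0.835 RPKM (3 reads), and the other libraries had 3 to 79 reads. Next after the P301S+ TREM2+/+ replicates 2 and 3 came control replicate 3, the library that stood apart. The means were 0.900 ± 1.24 RPKM in knockouts, 1.14 ± 0.788 in heterozygotes, 4.25 ± 3.68 in the P301S+ TREM2+/+ libraries and 2.01 ± 2.20 in controls (n = 4 each, ± SD), and no neighbours in their order differed by more than the larger SD. Without control replicate 3 the control mean was 0.916 ± 0.259 RPKM (n = 3, ± SD), below that of the heterozygotes.

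Clic6 belongs to the chloride intracellular channel family, and Kcnj13 encodes an inwardly rectifying potassium channel of the epithelium's surface that faces the fluid. Clic6 was at 3.71, 4.92, 2.23 and 3.48 RPKM in knockouts, 1.17, 5.15, 3.41 and 3.69 in heterozygotes, 4.46, 7.95, 10.2 and 2.23 in the P301S+ TREM2+/+ libraries, and 2.05, 1.31, 2.45 and 5.35 in controls. It had the smallest span of the 6 genes above 0 in every library, 8.66-fold between the highest and the lowest. Kcnj13 was at 3.53, 2.03, 0.908 and 2.20 RPKM in knockouts, 0.566, 3.21, 3.35 and 2.31 in heterozygotes, 1.60, 11.03, 11.97 and 1.64 in the P301S+ TREM2+/+ libraries, and 2.90, 1.95, 1.27 and 3.74 in controls. Within the P301S+ TREM2+/+ genotype Kcnj13 therefore split into 2 libraries at 11.03 and 11.97 RPKM and 2 libraries at 1.60 and 1.64, and the lower pair lay inside the range of every other genotype. Its lowest and highest libraries differed 21.2-fold, on 7 to 109 reads.

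Otx2 was at 2.94, 2.49, 0.998 and 0.775 RPKM in knockouts, 0.463, 2.89, 3.20 and 2.01 in heterozygotes, 1.07, 3.67, 8.09 and 1.68 in the P301S+ TREM2+/+ libraries, and 1.11, 0.748, 1.43 and 2.52 in controls. Its top 2 libraries were those of Ttr, and its lowest was heterozygote replicate 1, which was also the lowest for Ttr, Kl, Clic6 and Kcnj13. Prlr, the receptor through which the pituitary hormone prolactin signals and by which the choroid plexus binds it, was at 0.900, 0.526, 0.241 and 0.972 RPKM in knockouts and 0.405, 0.961, 1.03 and 0.641 in heterozygotes. It was at 0.772, 1.97, 2.60 and 0.571 RPKM in the P301S+ TREM2+/+ libraries and at 0.965, 0.263, 0.812 and 0.929 in controls. These low RPKM values still rested on 18 to 194 reads per library, because RPKM divides by the length of a long gene. The highest values again belonged to P301S+ TREM2+/+ replicates 2 and 3, and the genotypes overlapped for both genes.

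The libraries kept much the same order from gene to gene. P301S+ TREM2+/+ replicate 3 ranked first or second of 16 for all 7 members, and replicate 2 ranked first or second for 6 of them. Knockout replicate 1 was among the top 4 libraries for 5 members, heterozygote replicate 3 for 4 and control replicate 4 for 3. At the other end, heterozygote replicate 1 ranked 14th to 16th for every member. High and low libraries were thus found in more than 1 genotype, and the share of the log2 variance that lay between genotypes was 14.02% for Kl, 17.2% for Otx2, 20.1% for Ttr, 22.0% for Kcnj13, 26.5% for Clic6, 27.5% for Prlr and 27.8% for Folr1. The median over all genes tested was 22.3%, with 4 members below it and 3 above it.

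Pearson correlations of log2(RPKM + 1) between the 6 tested members ran from 0.435 (Kl with Folr1) to 0.883 (Ttr with Folr1), with a median of 0.723 over the 15 pairs and 16 libraries. By permutation with 100000 resamples and Benjamini-Hochberg adjustment over the 15 pairs, 14 pairs passed 0.05, and by Spearman's rho (0.326 to 0.882) 12 did. Without control replicate 3, r ran from 0.488 to 0.922 with a median of 0.788, and 14 pairs passed (13 by rho). Ttr and Folr1 had r = 0.883 (adjusted permutation p = 0.00015) and rho = 0.882 (adjusted permutation p = 0.0006), and Kcnj13 and Otx2 had r = 0.849 and rho = 0.838. All these points share the scaling of each library to its total, and the 2 highest libraries carry much of the range. Without the 2 libraries farthest from the median of the first gene of a pair, r ran from 0.0234 to 0.769 with a median of 0.475, and 7 of 15 pairs passed (5 by rho). Ttr kept its relation with Folr1 (r = 0.769), Otx2 (r = 0.704), Kcnj13 (r = 0.684) and Kl (r = 0.682), each at an adjusted permutation p of 0.0154. The relation of Ttr with Clic6 (r = 0.475, adjusted permutation p = 0.161) and those of Folr1 with Clic6 (r = 0.0234), with Kcnj13 (r = 0.261) and with Otx2 (r = 0.418) did not hold, and so rested on those libraries. The same was true of Kl with Clic6 (r = 0.248), with Kcnj13 (r = 0.356) and with Otx2 (r = 0.451). Among Clic6, Kcnj13 and Otx2 all 3 pairs still passed (r of 0.676 to 0.738). The libraries left out depend on the first gene, however. For pairs led by Ttr, Folr1 or Kcnj13 they were P301S+ TREM2+/+ replicates 2 and 3. For Clic6 they were P301S+ TREM2+/+ replicate 3 and heterozygote replicate 1, and for Kl replicate 3 and knockout replicate 1. Pairs led by Clic6 or Kl thus kept P301S+ TREM2+/+ replicate 2 and are not a check against both high libraries. On deviations from each genotype's mean, an alternative added after the data were seen, 12 pairs passed with a median r of 0.690. Prlr, described without a test, had an r of 0.856 with Ttr, 0.904 with Kcnj13, 0.812 with Clic6, 0.785 with Otx2, 0.754 with Folr1 and 0.526 with Kl.

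**Figure D2:**
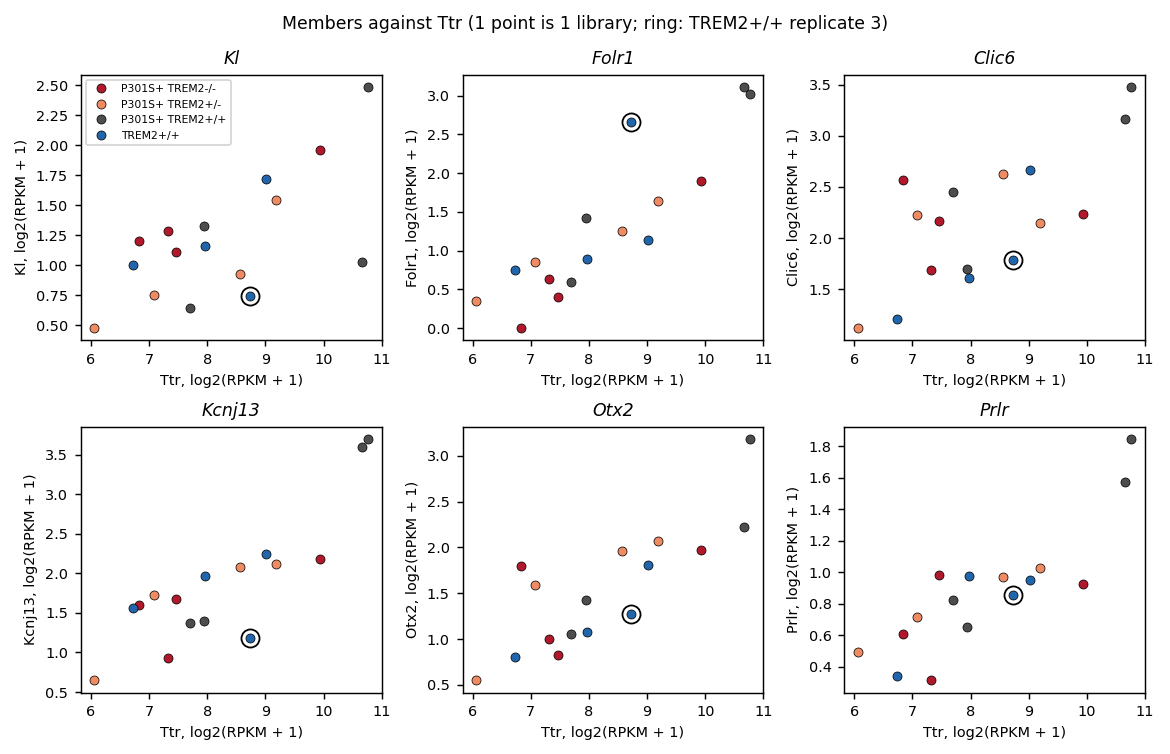
Each other member against Ttr, both as log2(RPKM + 1), with 1 point per library coloured by genotype and control replicate 3 ringed. The 2 P301S+ TREM2+/+ libraries at the right carry the highest Folr1, Clic6, Kcnj13, Otx2 and Prlr, while Kl is high in 1 of them; the ringed library lies above libraries of like Ttr for Folr1.

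The members differed in their least-squares slope on Ttr, given here without standard errors. On log2 RPKM the slope on Ttr was 0.972 for Folr1, over the 15 libraries where it was above 0, and 0.681 for Kcnj13, 0.617 for Otx2, 0.533 for Prlr, 0.440 for Clic6 and 0.422 for Kl over all 16. A slope below 1 can mean that the gene changed by a smaller factor than Ttr, but scatter about the line also lowers it. Per 1000 RPKM of Ttr, Clic6 ran from 3.81 to 43.6 RPKM (median 11.4), Otx2 from 2.27 to 22.03 (median 5.35) and Kl from 0.644 to 11.5 (median 4.72).

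Other genes of the choroid plexus followed Ttr as well. Of 32 further epithelial genes listed for comparison, 18 passed the expression minimum, and 10 of these had an r above 0.7 with Ttr over the 15 libraries other than control replicate 3, as did all 5 other tested members. Over all 12014 other tested genes 39 had such an r, or 0.325%, and the median r was 0.03. With control replicate 3 included, 6 of the 18 genes and 4 of the 5 members had an r above 0.7. Kcne2, among the 10, reached the minimum only through the P301S+ TREM2+/+ libraries, which favours a high r. These values describe the libraries and were given no test.

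The gene most like Ttr was 1500015O10Rik, which encodes the secreted peptide precursor augurin (r = 0.968). It was at 18.3, 3.09, 4.77 and 3.84 RPKM in knockouts, 1.61, 6.50, 13.3 and 4.26 in heterozygotes, 3.89, 20.5, 26.8 and 6.31 in the P301S+ TREM2+/+ libraries, and 3.95, 3.58, 2.15 and 7.39 in controls. Its high libraries were those of Ttr. It was followed by Kcne2 (r = 0.954), a potassium channel subunit of this epithelium, by Enpp2 (r = 0.931), the enzyme autotaxin that makes lysophosphatidic acid, by Wfdc2 (r = 0.910), a secreted protein of epithelia, and by Sostdc1 (r = 0.891), a secreted inhibitor of BMP and Wnt signals. Steap1 (r = 0.883), a metal reductase, Prr32 (r = 0.870), the collagen gene Col8a1 (r = 0.847), Unk (r = 0.847) and Smim22 (r = 0.835) completed the 10 genes most like Ttr outside the members. Of the 10, 6 were on the list of 32 choroid plexus genes. Prr32 averaged 0.900, 0.738 and 0.540 RPKM in knockouts, heterozygotes and controls and 2.02 RPKM in the P301S+ TREM2+/+ libraries. Prr32 and Kcne2 thus reached the expression minimum only through the genotype that holds the 2 libraries highest in Ttr, which favours a high r. For Enpp2 and Unk the likeness rested on leaving out control replicate 3, and with it r was 0.592 for Enpp2 and 0.270 for Unk.

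Enpp2, which oligodendrocytes also express, was at 153, 74.8, 93.2 and 82.6 RPKM in knockouts, 81.9, 113, 135 and 83.9 in heterozygotes, 76.9, 221, 227 and 92.7 in the P301S+ TREM2+/+ libraries, and 91.0, 76.5, 25.3 and 98.0 in controls. Its high libraries were again those of Ttr, over a level that no library lacked. Sostdc1 was at 12.01, 4.03, 2.42 and 3.13 RPKM in knockouts, 1.63, 6.12, 4.01 and 3.29 in heterozygotes, 3.53, 20.8, 20.4 and 2.30 in the P301S+ TREM2+/+ libraries, and 2.54, 2.21, 6.66 and 3.94 in controls. The same P301S+ TREM2+/+ replicates 2 and 3 and knockout replicate 1 again held the top 3 places. Not every gene of the list behaved so: Spint2, a protease inhibitor of epithelia that was singled out after its values were seen, had the lowest r of the list, -0.25.

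**Figure D3:**
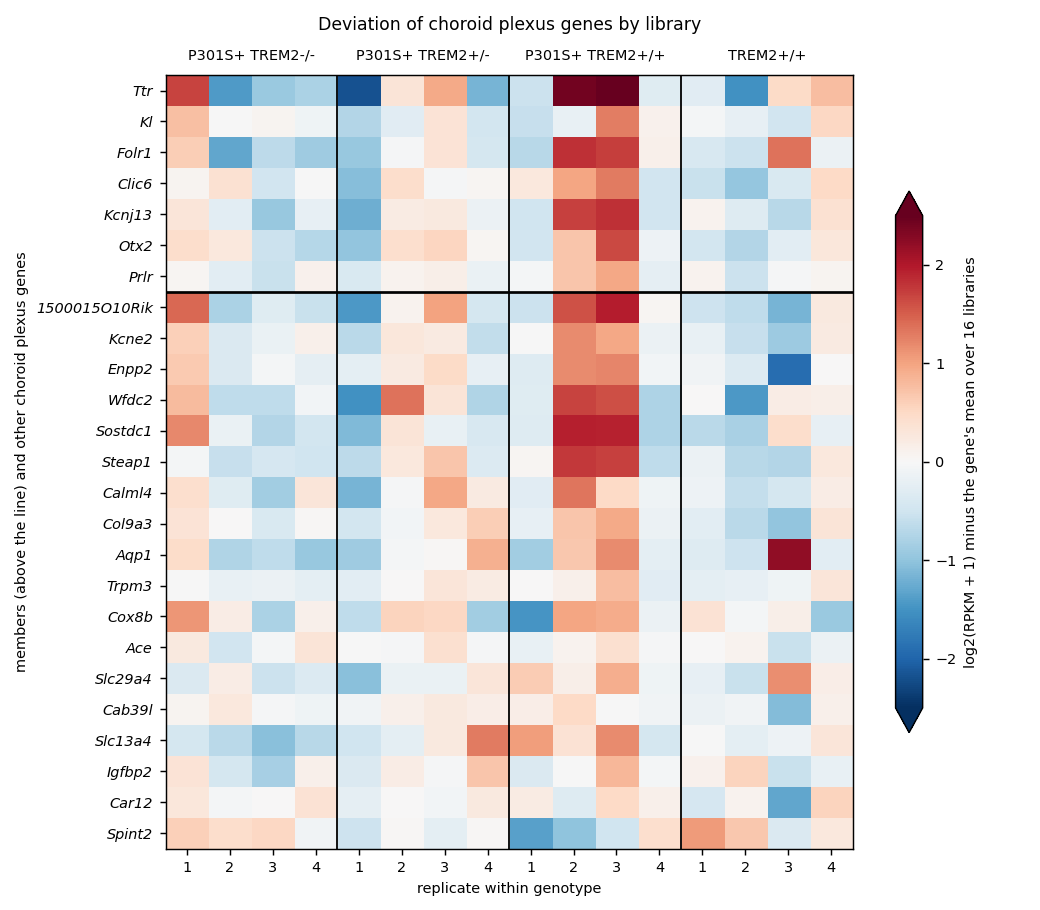
Log2(RPKM + 1) of the 7 members and of the 18 other choroid plexus genes above the minimum, minus each gene's mean over 16 libraries; columns are libraries by genotype, red is above the mean, and the colour scale ends at 2.5 in both directions. Columns 2 and 3 of P301S+ TREM2+/+ are red for all 7 members except Kl in column 2, and column 1 of P301S+ TREM2+/- is below the mean for all 7 members and for all 18 other genes.

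**Figure D4:**
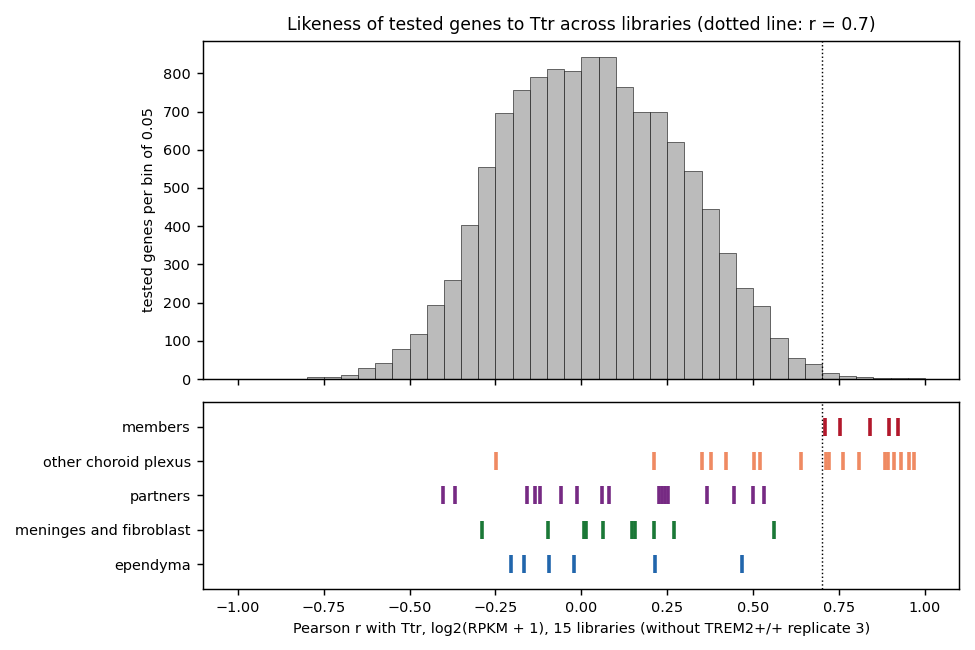
Distribution of the Pearson r with Ttr over 12014 tested genes (bars, bins of 0.05) and the r of single genes of 5 lists (ticks), over 15 libraries. All 5 other members and 10 of 18 further choroid plexus genes lie to the right of the dotted line at 0.7, and no gene of the partner, meninges or ependyma lists does.

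Lists for other cells that could enter a cortical dissection had median correlations with Ttr near 0, over the 15 libraries other than control replicate 3. Single genes spread more widely. Their r ran from -0.29 to 0.56 for meninges and fibroblasts, from -0.27 to 0.58 for endothelium and from -0.20 to 0.47 for ependyma. The median r with Ttr was 0.11 for 10 genes of meninges and fibroblasts, 0.08 for 6 endothelial genes, -0.06 for 6 genes of the ciliated ependyma that lines the same ventricles, 0.11 for 3 hippocampal genes, -0.16 for 6 striatal genes, -0.11 for 9 genes of thalamus and hypothalamus and -0.04 for the 6 excitatory neuron genes, and none of these genes had an r above 0.7. Their summed levels also varied between libraries. Striatal genes, of which Ppp1r1b was the highest, summed to 179 to 770 RPKM in knockouts, 105 to 468 in heterozygotes, 449 to 642 in the P301S+ TREM2+/+ libraries and 109 to 415 in controls, and heterozygote replicate 3, which ranked 4th of 16 in Ttr, had their lowest sum. Ependymal genes summed to 19.5 to 29.7 RPKM in knockouts, 18.2 to 35.8 in heterozygotes, 14.5 to 25.7 in the P301S+ TREM2+/+ libraries and 17.5 to 29.0 in controls. Their highest sum, 35.8 RPKM, belonged to the same heterozygote replicate 3. Genes of meninges and fibroblasts summed to 69.0 to 111, 80.5 to 189, 65.5 to 179 and 33.4 to 135 RPKM in knockouts, heterozygotes, P301S+ TREM2+/+ mice and controls. The sum was 189 RPKM in heterozygote replicate 4, 13th of 16 in Ttr, and 179 RPKM in P301S+ TREM2+/+ replicate 3, 1st in Ttr. It was 65.5 RPKM in P301S+ TREM2+/+ replicate 2, 2nd in Ttr. The part of these tissues in the results below was not tested.

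Liver also makes much Ttr, and its other defining transcripts were near 0. None of the 8 liver genes reached the expression minimum, 2 of them (Serpina1c and Tat) were at 0 in every library, and Alb was at most 0.247 RPKM. All 8 together summed to at most 1.24 RPKM in knockouts, 2.54 in heterozygotes, 2.44 in the P301S+ TREM2+/+ libraries and 3.71 in controls. Of 5 red blood cell genes, the 4 globin genes were listed at 0 in every library and Alas2 reached at most 0.218 RPKM. Whether the globin zeros reflect absent blood or the way reads were counted was not tested.

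The P301S effect compares P301S+ TREM2+/+ mice with controls. All 6 tested members were positive, with a median log2 difference of 0.75 on the log2(RPKM + 1) scale, which understates changes of low genes; over all 12015 genes 57.1% were positive with a median of 0.06. None of the 6 passed limma's test at an adjusted p of 0.05, and 0.0% of all genes did. Without adjustment 0 of the 6 had a p under 0.05, against 13.8% of all genes. Clic6 had the lowest p of the members, with 6.20 ± 3.54 RPKM in the P301S+ TREM2+/+ libraries and 2.79 ± 1.77 in controls (n = 4 each, ± SD), which is 0.88 on the log2 scale (SE 0.41, adjusted p = 0.365 by limma). Ttr differed by 1.16 (SE 0.91, adjusted p = 0.554) and Kcnj13 by 0.78 (SE 0.53, adjusted p = 0.506). The groups overlapped for all 7 members, whereas they did not overlap for 4.83% of all tested genes. These positive differences leaned on the 2 high libraries: the median of the members was 0.48 without P301S+ TREM2+/+ replicate 2 and 0.35 without replicate 3, where Kl turned to -0.11. Ttr stood at 0.62 without replicate 2 and 0.65 without replicate 3, Folr1 at 0.30 and 0.31, and Kcnj13 at 0.35 and 0.38. With all libraries Folr1 stood at 0.68. Without control replicate 3 the median was 0.82, Ttr stood at 1.42, Folr1 at 1.14 and Kcnj13 at 0.61.

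Among the 18 other choroid plexus genes 16 were positive in the P301S effect, with a median of 0.49 and none past the threshold (lowest adjusted p = 0.269, 5 with an unadjusted p under 0.05). The median was 0.38 without P301S+ TREM2+/+ replicate 2, 0.39 without replicate 3 and 0.58 without control replicate 3. Kcne2 reached the expression minimum only through its high level in the P301S+ TREM2+/+ libraries, which favours a positive sign here, and no member did so. With no minimum 28 of the 32 genes were positive, with a median of 0.36. In the same comparison the median was 0.29 for meninges and fibroblasts, 0.68 for striatum, 0.12 for ependyma and -0.66 for the excitatory neuron genes, so that striatal genes stood higher together with the members. Without control replicate 3 these medians were 0.08, 1.104, 0.04 and -0.62 for meninges and fibroblasts, striatum, ependyma and excitatory neurons. The part of these tissues in the result was not tested.

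Partial loss compares heterozygotes with P301S+ TREM2+/+ mice, and complete loss compares knockouts with the same P301S+ TREM2+/+ libraries, so that the 2 results and the P301S effect are not independent. In partial loss all 6 tested members were negative (median -0.77, all genes 0.01), and 0 passed, as did 0.0% of all genes. Unadjusted, 0 of the 6 had a p under 0.05 and 2.70% of all genes did. Ttr differed by -1.54 (SE 0.91) and Folr1 by -1.02 (SE 0.59), each at a limma adjusted p of 0.9996. The groups overlapped for all 7 members, while 2.85% of all genes had groups that did not. The median was -0.49 without P301S+ TREM2+/+ replicate 2, -0.44 without replicate 3, -0.45 without heterozygote replicate 1, and -0.77 as before without control replicate 3. Striatal genes were also lower, with 6 of 6 negative and a median of -0.80, and their part in the result was not tested.

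In complete loss 5 of 6 tested members were negative (median -0.74, all genes -0.02), and 0 passed, against 0.00832% of all genes. Folr1 was the member with the lowest p of any comparison, at 0.900 ± 1.24 RPKM in knockouts and 4.25 ± 3.68 in the P301S+ TREM2+/+ libraries (n = 4 each, ± SD), which is -1.31 on the log2 scale (SE 0.59) with an unadjusted limma p of 0.0444 and an adjusted p of 0.493. That was the only unadjusted p under 0.05 among the members, where 9.90% of all genes had one. Leaving out P301S+ TREM2+/+ replicate 2 or 3 gave -0.93 for Folr1 in either case. The median of the members was -0.47 without P301S+ TREM2+/+ replicate 2, -0.39 without replicate 3 and -1.13 without replicate 4. The median of the striatal genes was -0.31. Ttr differed by -1.38 (SE 0.91, adjusted p = 0.626), Kcnj13 by -0.92 (SE 0.53, adjusted p = 0.569) and Kl by 0.02 (SE 0.33, adjusted p = 0.995). The groups overlapped for all 7 members and did not overlap for 7.62% of all genes. Of the 18 other choroid plexus genes 15 were negative in partial loss (median -0.29) and 15 in complete loss (median -0.46), with none past the threshold in either. Leaving out 1 P301S+ TREM2+/+ library gave -0.56 without replicate 1, -0.11 without replicate 2, -0.12 without replicate 3 and -0.52 without replicate 4 in partial loss, and leaving out heterozygote replicate 1 gave -0.10. In complete loss the same list gave -0.24 without P301S+ TREM2+/+ replicate 2, -0.25 without replicate 3 and -0.70 without replicate 4. With no expression minimum 28 of the 32 genes were negative in partial loss (median -0.24) and 27 in complete loss (median -0.40).

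The 3 comparisons without the P301S+ TREM2+/+ libraries gave medians of the members nearer to 0. Knockouts against heterozygotes gave 3 positive and 3 negative members with a median of 0.05, and differences from -0.29 for Folr1 to 0.46 for Kl. Heterozygotes against controls gave a median of -0.16, from -0.39 for Ttr to 0.30 for Otx2. Knockouts against controls gave a median of 0.01, from -0.63 for Folr1 to 0.35 for Clic6. Without control replicate 3 the median was -0.0046 for heterozygotes and 0.10 for knockouts against controls. None of these members passed (limma adjusted p from 0.564 to 0.9999), as did 0.0% of all genes in each of the 3 comparisons, and 0 had an unadjusted p under 0.05. Among all genes 3.42% had such a p in knockouts against heterozygotes, 9.60% in heterozygotes against controls and 9.71% in knockouts against controls. All 7 members had overlapping groups in each, where 5.37%, 4.39% and 3.79% of all genes did not.

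Exact permutation tests of the mean log2(RPKM + 1), 4 against 4 libraries and two-sided, gave the same picture for all 7 members. The lowest p of the 42 tests was 0.171, where the design allows 0.0286. Prlr, which has no value in limma's fit with the expression minimum, averaged 0.660 ± 0.341 RPKM in knockouts, 0.760 ± 0.292 in heterozygotes, 1.48 ± 0.970 in the P301S+ TREM2+/+ libraries and 0.742 ± 0.326 in controls (n = 4 each, ± SD). Its mean log2 difference was 0.45 in the P301S effect (exact permutation p = 0.286), -0.42 in partial loss (exact p = 0.286) and -0.52 in complete loss (exact p = 0.229).

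**Figure D5:**
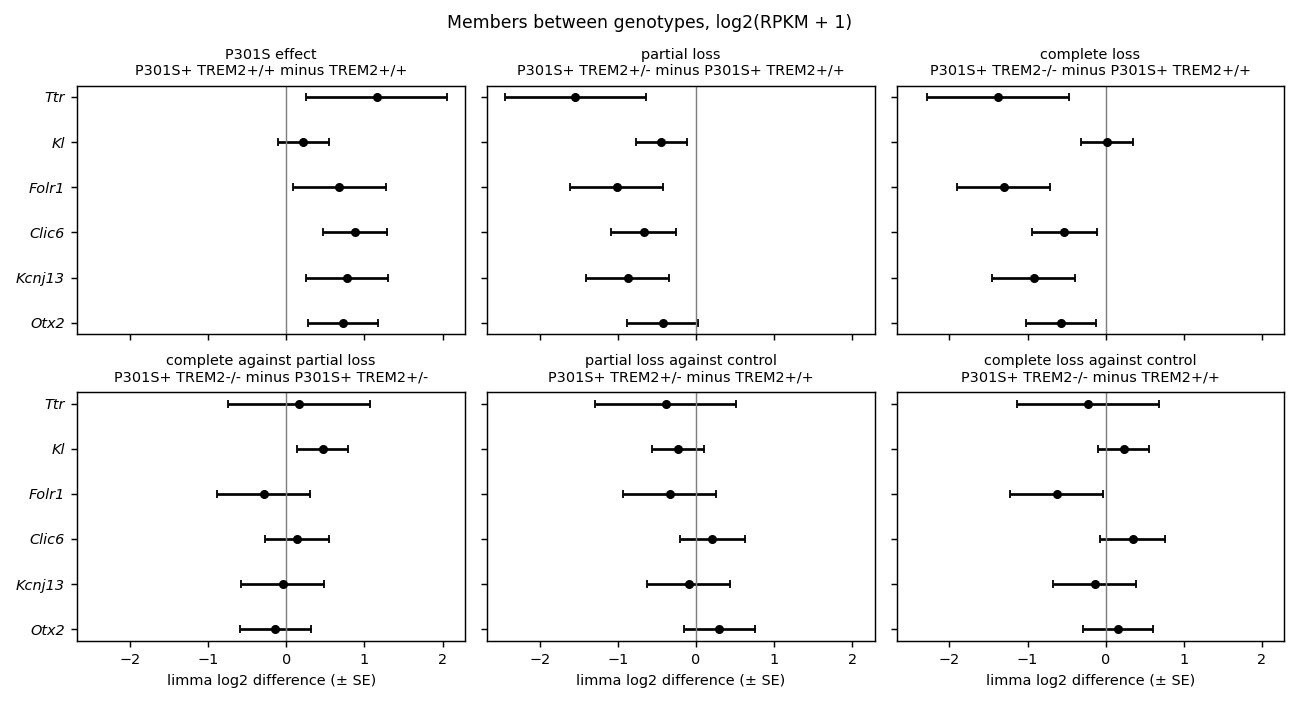
Limma log2 differences of the 6 tested members in the 6 comparisons, on the log2(RPKM + 1) scale with sex in the model; points are estimates and bars ± 1 SE, and each panel names its groups. The members lie to the right of 0 in the P301S effect, to the left of 0 in partial loss and, except Kl, in complete loss, with an adjusted p of at least 0.365 throughout.

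Genes that work with the members were listed for comparison, and 17 of 22 passed the expression minimum. None passed the test in any of the 6 comparisons, and their median log2 difference was 0.24 in the P301S effect, with 10 of 17 positive (0.22 and 13 of 17 without control replicate 3), -0.02 in partial loss and -0.01 in complete loss. Their median r with Ttr was 0.08. Rbp4, the retinol-binding protein that circulates bound to transthyretin, was at 26.6 ± 4.14 RPKM in knockouts, 24.5 ± 3.35 in heterozygotes, 28.7 ± 8.78 in the P301S+ TREM2+/+ libraries and 16.8 ± 9.37 in controls (n = 4 each, ± SD), the control mean including 5.30 RPKM in replicate 3 and standing at 20.7 ± 6.57 RPKM over the other 3. Fgfr1, the receptor to which klotho couples FGF23, averaged 12.9 ± 2.43, 14.5 ± 3.78, 11.52 ± 3.36 and 9.32 ± 3.65 RPKM in knockouts, heterozygotes, P301S+ TREM2+/+ mice and controls. Otx1, the cortical relative of Otx2, averaged 16.2 ± 5.10, 15.03 ± 6.68, 9.87 ± 2.69 and 11.47 ± 6.57 RPKM in the same order, with its lowest mean in the P301S+ TREM2+/+ genotype, where Otx2 had its highest. Kcnj10, the potassium channel of astrocytes in the family of Kcnj13, averaged 21.3 ± 2.09, 24.9 ± 5.64, 19.96 ± 4.33 and 22.2 ± 8.15 RPKM (n = 4 each, ± SD). Without control replicate 3 the control means were 10.8 ± 2.52 RPKM for Fgfr1, 14.4 ± 3.68 for Otx1 and 18.5 ± 4.38 for Kcnj10 (n = 3, ± SD). These 4 were chosen for their roles after the values were known.

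The sexes were compared within each genotype effect, with 2 females and 2 males per genotype. Differences between the female and the male effect did not pass for any tested member in the P301S effect, partial loss or complete loss (limma adjusted p from 0.639 to 0.998). The lowest unadjusted value belonged to Kl in complete loss (adjusted p = 0.639), where 7.24% of all genes had an unadjusted p under 0.05.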

How the data were processed

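Total RNA of 16 cortical samples was extracted with an RNeasy kit, and QuantSeq 3' libraries were sequenced on a HiSeq4000 instrument according to the labels' protocols. The tools STAR, HTSeq, edgeR and limma and the mm10 build appear in the submitters' processing notes, which give neither version nor role. The deposited tables hold 1 value per gene, identified as RPKM from the values, since the headers name no unit; the authors scaled it to each library's total. QuantSeq reads come from transcript ends, so dividing by length does not make RPKM of different genes comparable. Dividing each value by what 1 read is worth gave whole reads (within 0.001 reads or 1e-07 of the count) for 100.0% of 18911 genes with any signal. A single line per library named no gene and was left out. No 2 libraries of a genotype agreed within sampling noise (lowest chi-square per gene 6.87), so no 2 looked like repeat counts of 1 library. This check cannot tell separate mice from separate preparations of 1 mouse. Each library was counted as 1 sample.

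The 12015 genes averaging 1 RPKM or more were tested with limma 3.58.1 (trend) in R 4.3.3 on log2(RPKM + 1), with 4 genotypes and sex over all 16 libraries (11 residual degrees of freedom), Benjamini-Hochberg adjusted over all genes at 0.05. Sex interactions had 8 residual degrees of freedom. Exact permutation tests (70 splits) covered single members. The scripts were checked on simulated data. The members and lists were chosen with earlier results of these data known. The genes named beside the members are the 6 highest of the other lists, namely Nrgn, Camk2a, Ppp1r1b, Slc17a7, Tbr1 and Enpp2, every list gene past the threshold (0) and the 10 most like Ttr. Outside this rule, Trem2 checks the labels, Psap describes control replicate 3, and Gigyf2, Otx2os1, Gm21973 and Gm49154 overlap members. Rbp4, Fgfr1, Otx1, Kcnj10, Spint2, Kcne2 at the minimum, the liver and blood genes, Prl, Pomc, Gh and Cga were named after values were seen. Alternatives were a pseudocount of 0.1, no minimum, median-of-ratios scaling, only the 2 genotypes compared, no sex term, limma-voom on recovered reads, array weights and leaving out each library.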

Additional observations from a re-analysis of the deposited data

Results flagged for a closer look

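The effect of complete loss on Kl ran in opposite directions in the sexes. Female knockouts had 2.90 and 1.30 RPKM against 0.562 and 1.04 in P301S+ TREM2+/+ females, and male knockouts had 1.44 and 1.16 RPKM against 4.62 and 1.51 in P301S+ TREM2+/+ males. Both female knockouts lay above both P301S+ TREM2+/+ females, and both male knockouts below both P301S+ TREM2+/+ males. The female effect minus the male effect was 1.46 on the log2(RPKM + 1) scale (SE 0.59, adjusted p = 0.639 by limma), so the difference did not pass the adjusted threshold. Kl was not alone in this, as Otx2 also changed sign, with 0.25 in females and -1.39 in males. Its female effect minus male effect was 1.64 (SE 0.84, adjusted p = 0.746 by limma). In complete loss this difference was positive for every tested member, but the members varied together across libraries and are not separate observations. The male side includes P301S+ TREM2+/+ replicate 3, which was first or second of 16 for all 7 choroid plexus genes. The female side includes P301S+ TREM2+/+ replicate 2, first or second for 6 of them, and knockout replicate 1, among the top 4 for 5 of them. The part of these libraries in the differences was not tested. Single libraries stood far from the other 3 of their genotype in 3 of the 28 combinations of member and genotype on the RPKM scale, by Dixon's criterion, and in 0 of 28 on the log2(RPKM + 1) scale that the tests used. They were Ttr and Kl in knockout replicate 1, at 975 and 2.90 RPKM, and Folr1 in control replicate 3, at 5.30 RPKM. Chance alone passes this criterion in about 1 of 20 groups.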

How the results depend on the processing

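No paired analysis was possible because the labels give no replicate numbers: those used here only follow the order of deposition. No member passed under any of the 7 alternatives or with any library left out (lowest adjusted p = 0.12, with array weights). Of the 42 differences of a member in a comparison, 25 kept their sign throughout and 17 turned under at least 1 setting. With limma-voom Kl in complete loss was -0.014. With array weights Clic6 in complete against partial loss was -0.21, Ttr and Folr1 in partial loss against control 0.16 and 0.13, and Ttr in complete loss against control 0.34. Median-of-ratios scaling gave -0.026 for Prlr in partial loss against control. With 1 library left out, Kl ranged from -0.11 to 0.40 in the P301S effect and from -0.27 to 0.35 in complete loss. In complete against partial loss Ttr ranged from -0.62 to 0.66, Clic6 from -0.18 to 0.36, Kcnj13 from -0.37 to 0.23, Otx2 from -0.47 to 0.10 and Prlr from -0.20 to 0.038. In partial loss against control Ttr ranged from -0.89 to 0.18, Kcnj13 from -0.29 to 0.23, Clic6 from -0.018 to 0.53, Folr1 from -0.57 to 0.12 and Prlr from -0.13 to 0.12. In complete loss against control Kl ranged from -0.053 to 0.41, Otx2 from -0.082 to 0.40, Ttr from -1.003 to 0.12, Kcnj13 from -0.39 to 0.14 and Prlr from -0.22 to 0.059. The cause was not tested.

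Counts over all genes moved more. Array weights called 197 genes in the P301S effect, 690 in complete loss, 5 in complete against partial loss, 131 in partial and 4 in complete loss against control. In complete loss limma-voom and no expression minimum called 0 and the 2 genotypes alone 7, against 1. The 2 genotypes alone called 1 gene in complete against partial loss, and limma-voom 1 each in partial and complete loss against control, against 0. Leaving out 1 library gave 0 to 5 genes in the P301S effect, 0 to 13 in complete loss, 0 to 2 in complete against partial loss, 0 to 3 in partial and 0 to 1 in complete loss against control, the highest count each time without control replicate 3. Of the 15 correlations between members 14 passed, and 7 without the 2 libraries farthest from the median of a pair's first gene. Folr1, Kcnj13, Otx2 and Kl rested on fewer than 130 reads in every library, which limits their precision.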

Other observations

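Genes of the pituitary, a gland that lies below the brain and is not part of the cortex, were highest in a library that was not among those high in choroid plexus genes. Prl, which encodes the ligand of Prlr and is on the list of partners, was at 28.2 RPKM in P301S+ TREM2+/+ replicate 1, against at most 6.61 RPKM and a median of 0.106 RPKM in the other 15 libraries. Pomc, the precursor of corticotropin, was at 81.0 RPKM there and at most 5.29 elsewhere. Pomc is also on the list for thalamus and hypothalamus, so it does not mark the pituitary alone. The growth hormone gene Gh was at 10.7 RPKM and at most 3.71 elsewhere, and Cga, the shared subunit of several pituitary hormones, at 4.16 RPKM and at most 0.343 elsewhere. Pomc, Gh and Cga were singled out after their values were seen. In this library Ttr ranked 10th of 16 and Prlr also 10th. The second-highest Prl and Gh, 6.61 and 3.71 RPKM on 30 and 17 reads, belonged to P301S+ TREM2+/+ replicate 3, the library with the highest Ttr. Heterozygote replicate 3, 4th of 16 in Ttr, had 5.75 RPKM of Prl on 33 reads.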
